A study of Mus musculus with 12 samples.

Results

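Collagens, laminins and integrins are the structural proteins of the extracellular matrix and the receptors that hold cells to it. The genes described here are those whose symbol follows the naming of a collagen chain, a laminin chain or a numbered integrin subunit, together with fibronectin (Fn1), both nidogens (Nid1, Nid2), perlecan (Hspg2) and Sparc. Antisense and binding-protein genes were excluded, which removed 3 genes (Itgb1bp1, Itgb1bp2 and Itgb3bp). Of the 18193 genes measured, 77 met this rule: 42 collagen genes, 10 laminin genes, 5 other matrix genes, 11 integrin alpha genes and 9 integrin beta genes. Itgav has no number in its symbol and is given only as a non-member. The rule itself uses gene names only.

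The samples were embryoid bodies, aggregates that embryonic stem cells form in suspension when the self-renewal factor LIF is withdrawn, grown from mouse cells of strain 129 and taken at day 2.5. Of the 3 lines, WT is wild type, Smad4-null is labelled as null for Smad4 and Trim33-KD has Trim33 knocked down. Every line received activin at 50 ng/ml (ac) or SB431542 (SB), given in the labels as 10 mM, for 2 h. Smad4 is the partner shared by receptor-activated Smad proteins, Trim33 a ubiquitin ligase of the nucleus that can bind the activin-driven Smads, and SB431542 inhibits the type I receptors for activin, nodal and TGF-beta. The 6 groups had 2 Affymetrix arrays each. No group went without activin and inhibitor, the labels name neither the knock-down construct nor the number of clones, and genotype and cell line cannot be told apart. Whether the replicates came from separate cultures is not stated in the labels, so p-values may reflect technical spread between these samples alone.

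A basement membrane is a sheet of matrix under epithelia. Laminin trimers of an alpha, a beta and a gamma chain assemble at the cell surface, collagen IV forms a second network, and nidogens and perlecan link the networks. In the early mouse embryo and in embryoid bodies, a laminin-rich basement membrane separates the epiblast from the surrounding endoderm, and epiblast cells lose contact with it when they pass through the primitive streak. Integrins are pairs of an alpha and a beta subunit. Itgb1 pairs with most of the alpha subunits for laminin, collagen and fibronectin, and Itga6 and Itga3 give laminin receptors, Itga5 the main fibronectin receptor. TGF-beta and activin signals are well known to act on matrix genes in many cell types.

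The values are log2 signals, and a log2 difference of 1 is a doubling. In Trim33-KD the signals of the 3 Trim33 probe sets were 34.4%, 30.3% and 56.6% of those in WT. The 3 Smad4 probe sets stood at 101%, 110% and 115% of WT on the arrays labelled Smad4-null, so these probe sets do not check that label. Array medians ranged from 5.86 to 6.30. A pair of arrays had a narrow spread, with an SD over all probe sets of 3.07 for WT-SB replicate 2 and, among the activin arrays, 3.13 for Smad4-null replicate 1, against 3.24 to 3.39 elsewhere, and the highest medians, 6.30 and 6.25. Primitive streak and mesendoderm markers were lowered in Smad4-null for 8 of 8 measured genes, with a summed linear signal of 599.6 to 945.5 per array against 5719 to 12630 in WT and 2909 to 8484 in Trim33-KD. Of the 8 epiblast markers, Sox2 (0.49) and Utf1 (0.82) were raised and Fgf5 (-1.43), Nanog (-0.38), Pou5f1 (-0.31) and Tdgf1 (-0.70) lowered in Smad4-null against WT, and Otx2 (-0.95) was lowered in Trim33-KD against WT. Their summed signal, in which single genes can offset each other, overlapped between the lines, at 47030 to 56220 in WT, 49190 to 51920 in Smad4-null and 46210 to 54410 in Trim33-KD.

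Members differed widely in signal. On 23 of the 77, the log2 signal was under 6 on every array; 28 were over it on every array, and 26 crossed it. The dim group held 13 of the 42 collagens and 3 of the 10 laminins, whereas all 5 other matrix genes were over 6 throughout. Only 19 members lay above the median mean signal of all genes, 7.48. The level of one probe set was not set against that of another, since each has its own brightness.

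In Smad4-null embryoid bodies, both nidogens, which are basement membrane linkers, fibronectin and the laminin receptor subunit Itga6 were higher than in WT, while 3 integrin alpha genes, Itgb5, Lama4, Lama5 and 5 collagens were lower. Of the 77 members, 19 passed limma's test at an adjusted p of 0.05 (Benjamini-Hochberg over all genes), which is 24.7%, with 8 raised and 11 lowered. Of all genes, 18.4% passed, 7.12% raised and 11.3% lowered, so members passed at a share not far from the background. The median difference was -0.19 over the members and -0.03 over all genes. Among the collagens 3 rose and 5 fell of 42, among the laminins 0 rose and 2 fell of 10, among the other matrix genes 3 rose and 0 fell of 5, and among the integrins 2 rose and 4 fell of 20. With each array centred on its median, the split over all genes moved from 1295 raised and 2061 lowered to 1651 raised and 1580 lowered, and that of the members to 8 raised and 10 lowered.

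**Figure D1:**
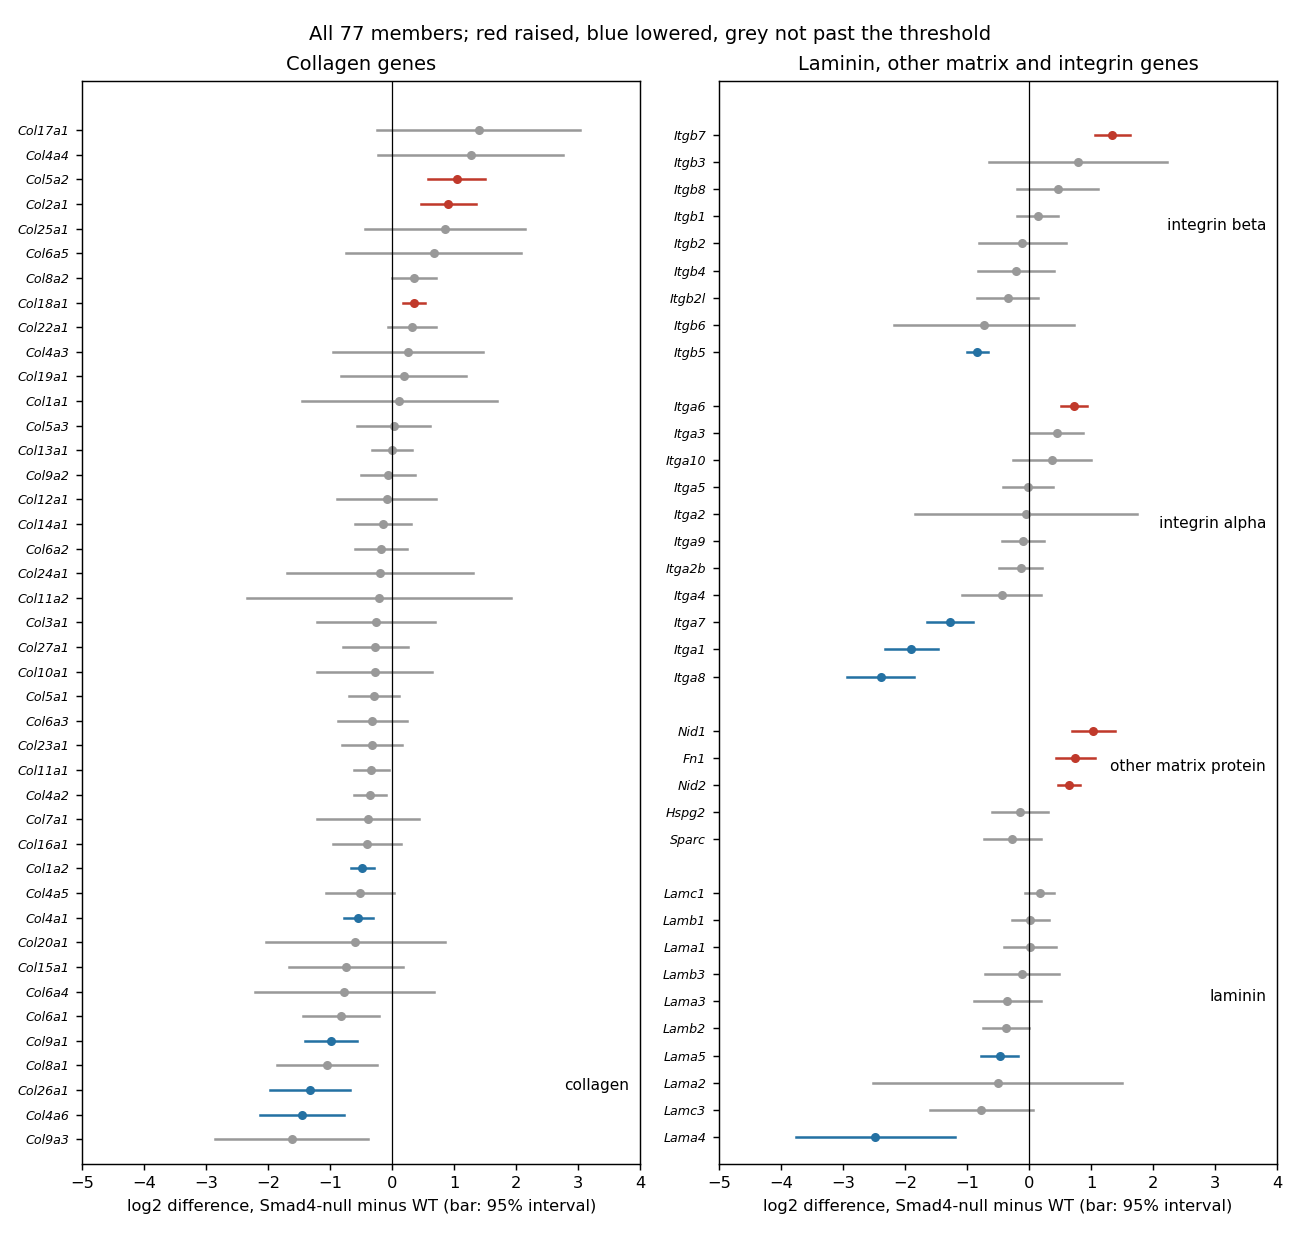
The log2 difference of each of the 77 members between Smad4-null and WT (4 arrays each) is plotted with its 95% interval, collagens on the left and the other classes on the right. The 8 raised members (red) reach 1.34 for Itgb7 and the 11 lowered members (blue) -2.48 for Lama4, which was under 6 on every array, and the widest intervals belong to dim genes in grey.

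The nidogens, which bridge laminin and collagen IV, both rose. Values are given in the order SB431542 replicates 1 and 2, then activin replicates 1 and 2. Nid1 had log2 signals of 7.98, 7.81, 7.67 and 7.75 in WT, 8.63, 9.14, 8.87 and 8.71 in Smad4-null and 8.004, 8.47, 8.28 and 8.40 in Trim33-KD. All 4 Smad4-null arrays lay above every WT and Trim33-KD array, and the difference from WT was 1.04 (SE 0.15, limma adjusted p = 0.00341), 2.05-fold. Nid2 read 11.13, 11.11, 10.93 and 11.07 in WT, 11.63, 11.73, 11.78 and 11.68 in Smad4-null and 11.39, 11.33, 11.51 and 11.55 in Trim33-KD. The lines did not overlap, with Trim33-KD between the other two, and Smad4-null exceeded WT by 0.64 (SE 0.073, adjusted p = 0.00131). Fibronectin, a soluble and fibrillar glycoprotein that cells bind through Itga5 and Itgav, gave 12.29, 12.71, 12.36 and 12.49 in WT, 13.04, 13.18, 13.51 and 13.11 in Smad4-null and 12.49, 12.25, 12.44 and 12.42 in Trim33-KD. The Smad4-null arrays were again the highest, by 0.75 over WT (SE 0.13, adjusted p = 0.00841).

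The chains of the main embryonic laminin did not pass the test. Lama1, the alpha chain of the early embryo, was 6.53 ± 0.11 in WT and 6.54 ± 0.33 in Smad4-null (log2 mean ± SD, n = 4 each), a difference of 0.018 with a 95% interval from -0.40 to 0.43. For its partners Lamb1 and Lamc1 the differences were 0.022 (-0.27 to 0.32) and 0.17 (-0.064 to 0.40). The 3 further Lamb1 probe sets gave -0.11, -0.50 and -0.64, the last of them bright (mean 8.91) and outside the Lamb1 interval, so Lamb1 probe sets disagreed. On these probe sets the intervals leave out a change of the size seen for Nid1. Lama5, the alpha chain that is widespread in epithelial basement membranes, read 11.29, 10.91, 11.60 and 11.34 in WT, 10.74, 10.72, 10.91 and 10.88 in Smad4-null and 11.11, 11.15, 10.80 and 11.20 in Trim33-KD. One WT array, SB431542 replicate 2, fell to the level of the Smad4-null arrays, so these groups overlapped. The difference was -0.47 (adjusted p = 0.0418), and the call was lost when any of 9 single arrays was left out, with the adjusted p reaching 0.131. A further Lama5 probe set fell by 0.27, whereas a dim probe set, at most 4.48 on any array, gave 1.38 in the opposite direction.

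Lama4, a chain of endothelial and mesenchymal basement membranes, had signals of 5.87, 5.29, 3.48 and 5.76 in WT and 3.27, 2.19, 2.09 and 2.95 in Smad4-null. All 8 values were under 6. The difference as deposited was -2.48 (SE 0.55, adjusted p = 0.0194), none was left (0) once signals were floored at 6, and the call was also lost without WT-SB replicate 1, Smad4-null-SB replicate 2 or Smad4-null-ac replicate 1. Perlecan, the heparan sulfate proteoglycan of basement membranes, differed by -0.14 (-0.60 to 0.31) and Sparc, a collagen-binding glycoprotein, by -0.27 (-0.73 to 0.19); neither passed.

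**Figure D2:**
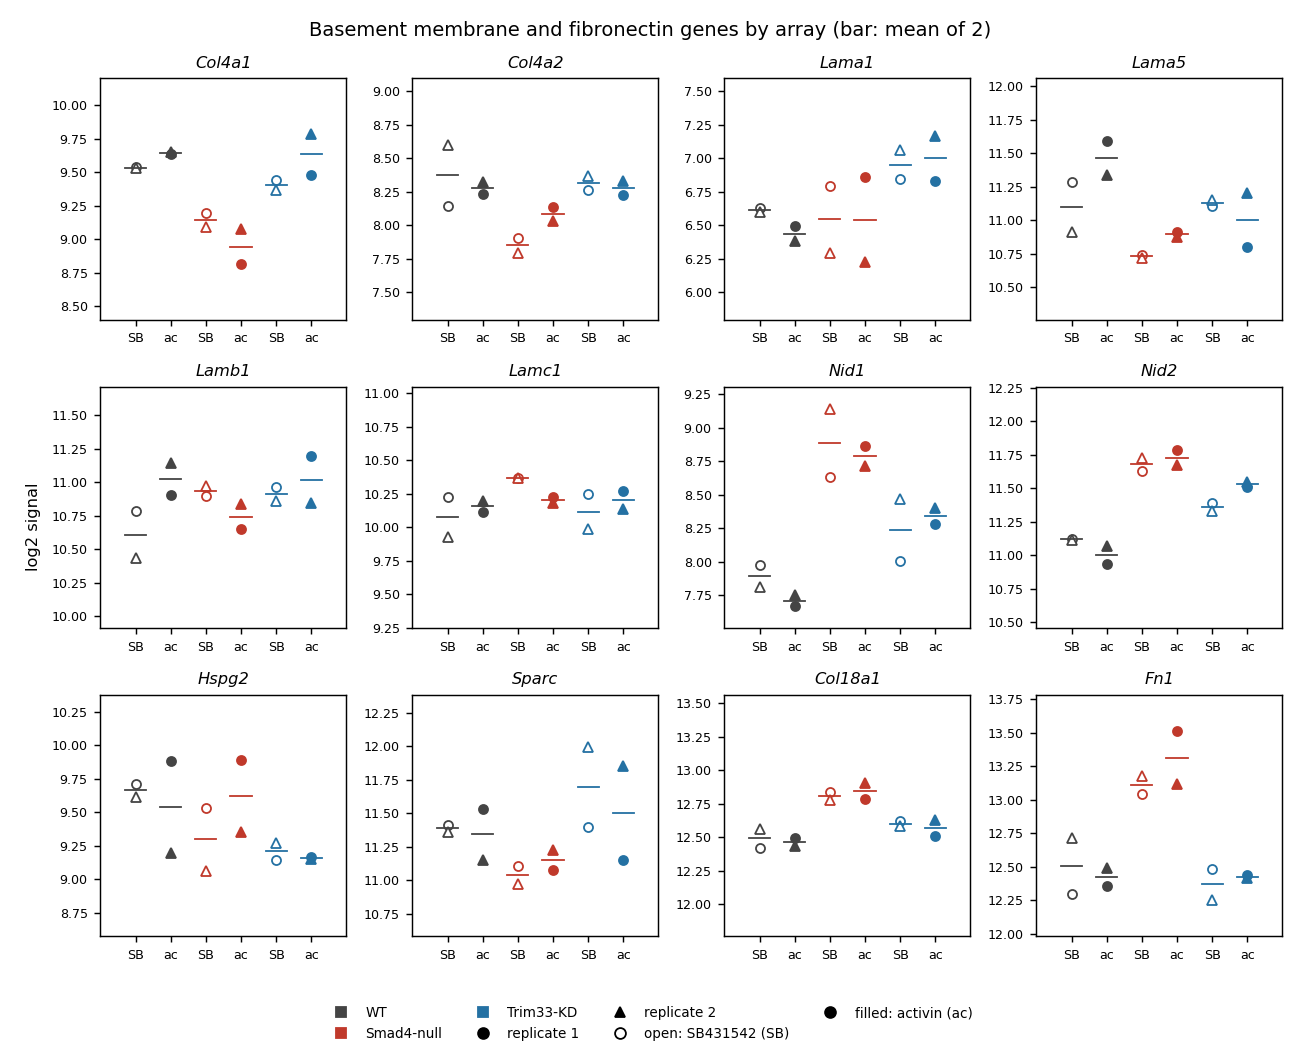
Log2 signals of 12 basement membrane and fibronectin genes are plotted for each array, by line (colour), treatment (open SB431542, filled activin) and replicate (shape), with the mean of each pair as a bar and a scale of its own per gene. Nid1, Nid2, Col18a1 and Fn1 are highest on the 4 Smad4-null arrays, whereas Lama1, Lamb1, Lamc1 and Hspg2 overlap between WT and Smad4-null.

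Collagen IV, the network-forming collagen of basement membranes, was lower in Smad4-null for the 2 of 6 chains that passed the test. Col4a1 read 9.54, 9.53, 9.64 and 9.65 in WT, 9.20, 9.09, 8.81 and 9.08 in Smad4-null and 9.45, 9.37, 9.48 and 9.79 in Trim33-KD. Every Smad4-null array lay below every other array, and the difference from WT was -0.55 (SE 0.10, adjusted p = 0.0089). The call was lost with all probe sets of the gene averaged and on the SB431542 arrays alone. Over the alternatives, among them that without the 2 arrays of narrow spread, the Col4a1 difference ran from -0.70 to -0.39. Col4a2, its head-to-head neighbour on chromosome 8, differed by -0.36 without passing (adjusted p = 0.0675), with 8.14, 8.60, 8.23 and 8.32 in WT and 7.91, 7.79, 8.14 and 8.03 in Smad4-null. Col4a6 gave 6.51, 6.94, 6.76 and 6.39 in WT, 5.48, 5.52, 5.57 and 4.19 in Smad4-null and 5.41, 5.75, 5.79 and 5.79 in Trim33-KD. Every array of the other two lines lay below every WT array, with a difference of -1.46 in Smad4-null (adjusted p = 0.0122) and of -0.96 in Trim33-KD, which did not pass (adjusted p = 0.172). All Smad4-null arrays of Col4a6 were under 6, and the difference from WT with the floor of 6 was -0.65, still past the threshold. Its neighbour on the X chromosome, Col4a5, differed by -0.52 in Smad4-null and did not pass (adjusted p = 0.182). Col4a3 and Col4a4 lay on the other side of 0, at 0.25 (adjusted p = 0.792) and 1.26 (adjusted p = 0.235), with every array under 6.

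There were 8 pairs of adjacent members, and in no pair did both members pass the test. The calls therefore cannot show whether neighbours shift together or apart. The signs of the differences matched in some pairs, among them those of collagen IV, and differed in others. Col5a2, a chain of the fibrillar collagen that co-assembles with types I and III, was 5.91 ± 0.37 in WT and 6.95 ± 0.15 in Smad4-null, higher by 1.04 (limma adjusted p = 0.0105). Its neighbour Col3a1 differed by -0.26 and did not pass, with every WT and Smad4-null array under 6. Col2a1, the fibrillar collagen of cartilage that is also made in early embryos, read 7.82, 7.19, 7.85 and 7.72 in WT, 8.68, 8.12, 8.67 and 8.73 in Smad4-null and 7.33, 7.15, 7.16 and 6.73 in Trim33-KD. Smad4-null was the highest line and Trim33-KD the lowest on average, with a rise of 0.90 over WT (adjusted p = 0.0153) that was lost without WT-ac replicate 2 or Smad4-null-SB replicate 1. Col18a1, a basement membrane collagen from which endostatin is cleaved, rose by 0.35 (adjusted p = 0.0178); this call was lost without any of 4 single arrays.

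The other collagens that fell were dim or close to the value of 6. The difference was -1.33 for Col26a1 (adjusted p = 0.0155), -0.99 for Col9a1, a chain of a fibril-associated cartilage collagen (adjusted p = 0.00876), and -0.48 for Col1a2, a chain of type I collagen (adjusted p = 0.0057). Once signals were floored at 6, Col9a1 had no difference left (0) and Col26a1 a difference of -0.08. The direction of the calls differed with signal, which was not tested. Of the 19 members above the median signal of all genes, 7 were raised (36.8%) and 3 lowered (15.8%). Of the 58 below it, 1 was raised (1.72%) and 8 lowered (13.8%). Over all genes, 10.1% were raised and 15.3% lowered above the median, and 4.13% and 7.4% below it.

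Some collagens without a call, named after their values were seen, were uneven within a line. Col9a3, a partner chain of Col9a1, read 7.38, 5.02, 7.56 and 7.26 in WT, 4.90, 5.54, 4.68 and 5.61 in Smad4-null and 5.84, 6.92, 7.03 and 6.68 in Trim33-KD. WT-SB replicate 2 lay with the Smad4-null arrays and away from the other 3 WT arrays, and the difference of -1.62 did not pass (adjusted p = 0.0771). Col6a1 and Col6a2, neighbours on chromosome 10 that encode chains of the beaded-filament collagen VI, differed by -0.83 (adjusted p = 0.068) and -0.18 (adjusted p = 0.558). Col5a1, the partner chain of Col5a2, gave 7.78, 8.04, 7.94 and 7.90 in WT, 7.40, 7.63, 7.84 and 7.60 in Smad4-null and 8.19, 8.48, 8.06 and 8.77 in Trim33-KD. Trim33-KD was the highest line for Col5a1 and Smad4-null the lowest on average, and neither difference from WT passed (adjusted p = 0.307 and 0.245). Col7a1, the anchoring-fibril collagen, was 7.34 ± 0.41 in WT, 6.95 ± 0.23 in Smad4-null and 7.62 ± 0.65 in Trim33-KD (n = 4 each), and its 2 highest Trim33-KD arrays, 7.94 and 8.37, were both replicate 2.

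Integrin genes gave the 4 smallest adjusted p values of the members (Itgb5, Itgb7, Itga1 and Itga8). The 250 bases upstream of the start are shown for Itga8, Itga1, Itgb5 and Itgb7, the called integrins with an entry in the RefSeq promoter table (GRCm38.p6), because their signals separate the Smad4-null arrays from the others in opposite directions. Capitals mark matches on either strand to 3 motifs searched: the GC box GGGCGG, the CCAAT box CCAAT and CAGAC, a form of the Smad-binding element. The sequences run 5′ to 3′ on the strand of the gene.
Itga8 (chr2:12301945-12302194, minus strand): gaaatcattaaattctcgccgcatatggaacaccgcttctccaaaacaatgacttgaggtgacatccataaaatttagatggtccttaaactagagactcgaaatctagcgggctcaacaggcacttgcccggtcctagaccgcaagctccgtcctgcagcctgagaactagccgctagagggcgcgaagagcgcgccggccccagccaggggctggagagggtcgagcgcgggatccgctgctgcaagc
Itga1 (chr13:115101965-115102214, minus strand): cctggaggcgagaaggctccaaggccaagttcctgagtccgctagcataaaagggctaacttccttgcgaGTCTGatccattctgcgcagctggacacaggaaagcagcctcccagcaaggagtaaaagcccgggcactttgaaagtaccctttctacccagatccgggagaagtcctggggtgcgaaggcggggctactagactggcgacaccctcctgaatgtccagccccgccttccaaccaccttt
Itgb5 (chr16:33829415-33829664, plus strand): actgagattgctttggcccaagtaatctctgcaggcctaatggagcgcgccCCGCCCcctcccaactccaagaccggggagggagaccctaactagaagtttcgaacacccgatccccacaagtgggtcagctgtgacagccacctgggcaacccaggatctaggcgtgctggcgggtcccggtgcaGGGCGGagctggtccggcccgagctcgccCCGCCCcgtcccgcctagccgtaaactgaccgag
Itgb7 (chr15:102231936-102232185, minus strand): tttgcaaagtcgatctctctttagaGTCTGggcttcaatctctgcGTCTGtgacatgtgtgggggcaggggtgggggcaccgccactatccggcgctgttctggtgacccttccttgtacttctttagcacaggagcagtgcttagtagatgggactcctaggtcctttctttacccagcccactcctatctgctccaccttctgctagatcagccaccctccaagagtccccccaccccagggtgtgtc
The Itgb5 window holds 3 GC boxes, the Itga1 window 1 CAGAC match, the Itgb7 window 2, and the Itga8 window none of the 3 motifs. Of the 62 windows of 56 members, 50% held GGGCGG, 27.4% CCAAT and 50% CAGAC, against 32.7%, 33.9% and 42.2% of all 32841 windows. These matches describe the letters only.

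Itga8, an alpha subunit that pairs with Itgb1 and binds nephronectin, had log2 signals of 7.94, 7.74, 7.88 and 7.99 in WT, 5.22, 5.35, 5.36 and 6.05 in Smad4-null and 8.83, 9.41, 8.59 and 9.38 in Trim33-KD. The lines did not overlap. Smad4-null was lowest, with -2.39 against WT (SE 0.23, adjusted p = 0.000713). As 3 of its 4 arrays were under 6, the size is uncertain; with the floor of 6 it was -1.88 and passed. Itga1, a collagen-binding alpha subunit, read 6.45, 6.95, 6.58 and 7.10 in WT, 5.35, 5.05, 4.53 and 4.56 in Smad4-null and 7.03, 6.48, 6.29 and 6.31 in Trim33-KD. Its Smad4-null arrays were all lower than the others, with a difference of -1.90 from WT (SE 0.19, adjusted p = 0.000713). All 4 were under 6; with the floor of 6 the difference was -0.77 and passed (adjusted p = 0.0291). The call was lost when it was averaged with its other probe set, at most 4.10 on any array, which gave -0.040. Itga7, a laminin-binding alpha subunit best known from muscle, was 5.98 ± 0.26 in WT and 4.70 ± 0.30 in Smad4-null (n = 4 each), a difference of -1.28 (adjusted p = 0.00195); all 4 Smad4-null arrays and 2 of the 4 WT arrays were under 6, and the call was lost with the floor of 6, where -0.086 was left.

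Itgb5, which pairs with the non-member Itgav in a vitronectin receptor, read 10.36, 10.50, 10.35 and 10.43 in WT, 9.44, 9.34, 9.78 and 9.74 in Smad4-null and 10.45, 10.54, 10.51 and 10.48 in Trim33-KD. The WT and Trim33-KD arrays lay within 10.35 to 10.54, and the Smad4-null arrays were lower, with a difference of -0.83 from WT (SE 0.074, adjusted p = 0.00049). Itgav itself fell by 0.30 (adjusted p = 0.0361).

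Itga6, the laminin-binding alpha subunit that pairs with Itgb1 or Itgb4, moved the other way, at 11.31, 11.21, 11.27 and 11.50 in WT, 12.003, 12.24, 11.98 and 11.97 in Smad4-null and 11.01, 11.04, 11.05 and 11.05 in Trim33-KD. Smad4-null was the highest line, by 0.73 over WT (SE 0.089, adjusted p = 0.00178). Itgb7, a beta subunit best known from lymphocytes, gave 7.20, 7.34, 7.14 and 6.89 in WT, 8.32, 8.62, 8.53 and 8.47 in Smad4-null and 7.24, 7.56, 7.03 and 6.84 in Trim33-KD. All Smad4-null arrays were above the others, by 1.34 over WT (SE 0.12, adjusted p = 0.000515), 2.54-fold. The common partner Itgb1 differed by 0.14 (-0.20 to 0.47) and the fibronectin receptor gene Itga5 by -0.017 (-0.41 to 0.38), neither passing. A further Itga5 probe set, at most 7.04 on any array, gave -0.57, outside the Itga5 interval. Dimmer ones, at most 5.45 and 5.83, gave -0.16 and 0.27, so Itga5 probe sets disagreed. Itga3 differed by 0.45 from WT with no overlap between these lines, but its limma adjusted p was 0.15. Its further probe sets gave 0.83 and -0.21, so Itga3 probe sets disagreed.

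**Figure D3:**
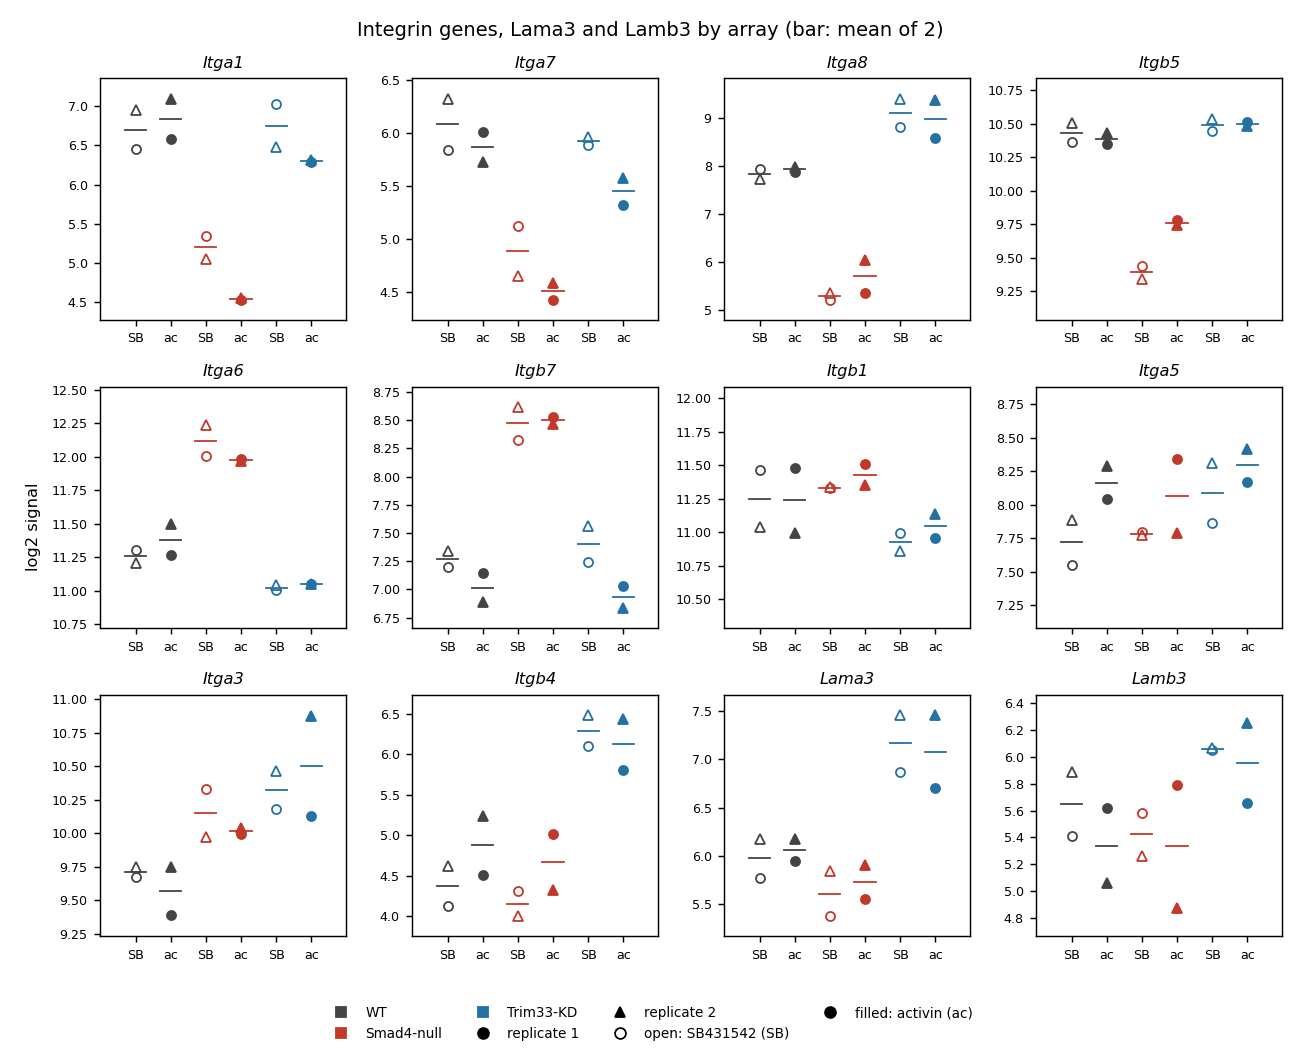
Log2 signals of 10 integrin genes, Lama3 and Lamb3 are plotted for each array, by line (colour), treatment (open SB431542, filled activin) and replicate (shape), with the mean of each pair as a bar and a scale of its own per gene. Itga1, Itga7, Itga8 and Itgb5 are lowest and Itga6 and Itgb7 highest on the 4 Smad4-null arrays, and Itgb4 and Lama3 are highest on the 4 Trim33-KD arrays.

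Of the 19 calls, 15 held without any single array. Calls for 6 members (Nid1, Nid2, Itga6, Itga8, Itgb5 and Itgb7) held under every alternative that tested them. Among the called genes, 15 had a total of 20 further probe sets, of which 19 had the sign of the one used. The lowered mesendoderm markers moved with these differences, and in bulk samples fewer cells of a type and less RNA per cell cannot be told apart. Extraembryonic endoderm markers mark the cells that lay down much of the matrix of early embryos. Of these markers, 0 rose and 3 fell (Gata6, Sox17 and Sox7) of 14 (21.4%, near the 18.4% of all genes). Their summed linear signal was 1011 to 1165 in Smad4-null, 1278 to 1419 in WT and 1206 to 1415 in Trim33-KD, and Afp, Ttr, Apoa1 and Thbd were under 6 on every array. Of the fibroblast markers 1 rose (Dcn, by 3.27) and 2 fell (Tagln and Thy1) of 10 (30%, against the same 18.4%). Their summed signals were 1680 to 1856 in Smad4-null, 2309 to 2647 in WT and 2118 to 2451 in Trim33-KD. Lum, Twist2, Prrx1, Fap and Postn were under 6 throughout. The part of these cell types in the members' differences was not tested.

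**Figure D4:**
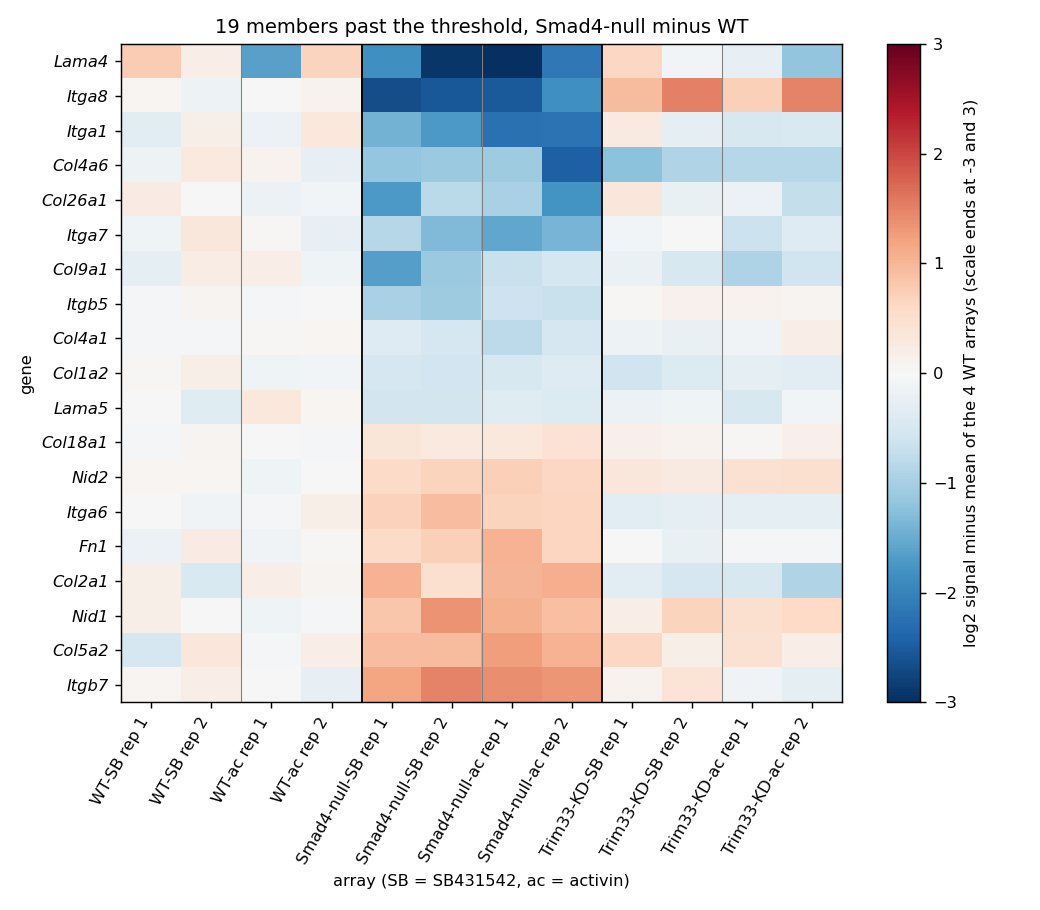
The 19 members that passed the test between Smad4-null and WT are shown on the 12 arrays as log2 signal minus the mean of the 4 WT arrays (blue lower, red higher). The 4 Smad4-null columns hold the strongest colours, from -2.48 for Lama4 to 1.34 for Itgb7 on average, while in the Trim33-KD columns Itga8 (mean 1.16) and Col4a6 (mean -0.96) lie farthest from WT.

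Genes that process, surround or signal from the matrix were read from 4 lists, to be set beside the 18.4% of all genes that passed. Among the genes of collagen processing and crosslinking, 1 rose and 4 fell of 25 measured in Smad4-null against WT (20%). The procollagen C-proteinase Bmp1, on chromosome 14, fell by 2.52, with every Smad4-null array under 6, and its relative Tll1, under 6 on all 12 arrays, fell by 2.11. The procollagen N-proteinase Adamts3 fell by 1.17, with every Smad4-null array under 6 and the WT arrays only at 6.14 to 6.42. P3h2, a prolyl hydroxylase that acts on collagen, fell by 0.93. Among other basement membrane proteins and matrix receptors 2 rose and 8 fell of 20 (50%), with Frem2 (-2.28), Fras1 (-1.67) and Smoc1 (-1.58) changing most among genes that reached 6; Smoc2 (-2.50) was under 6 on all 12 arrays. Fras1 and Frem2 are partners in a complex under embryonic epithelia. Among the integrin adaptors 3 rose and 3 fell of 17 (35.3%): the focal adhesion protein Zyx fell by 1.91, Src fell by 0.92, Bcar1 rose by 0.95 and Tns3 rose by 0.79. Of the matrix proteases and inhibitors 2 rose and 3 fell of 16 (31.2%), all as log2 differences: the membrane-type protease Mmp14, also on chromosome 14, fell by 1.84, Adamts9 fell by 1.72, the protease inhibitor Reck fell by 0.81, and the inhibitor Timp1 rose by 0.77.

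In Trim33-KD embryoid bodies, no member differed from WT by the test: 0 of 77, where 0.649% of all genes passed. At an unadjusted p under 0.05, 18 members and 3087 of all genes were found. The 4 lists of partner genes had 0 calls as well. The basement membrane genes stood at -0.068 for Col4a1, -0.026 for Col4a2, 0.45 for Lama1, -0.22 for Lama5, 0.15 for Lamb1, 0.045 for Lamc1, -0.42 for Hspg2 and 0.24 for Sparc. None of these log2 differences passed. Of the adhesion genes, Itga5 (0.25), Itga6 (-0.28), Itgb1 (-0.26), Itgb5 (0.085) and the linker Nid1 (0.49) did not pass either. The further Itga5 probe sets gave -0.39, -0.43 and -0.56, in the opposite direction. For Lamc1 the 95% interval ran from -0.19 to 0.28, and for Fn1, at -0.067, from -0.38 to 0.25.

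The members with the smallest adjusted p, named after their values were seen, included Itgb4, the beta subunit that pairs with Itga6 in epithelial adhesions, and the laminin alpha chain gene Lama3. Itgb4 read 4.12, 4.62, 4.51 and 5.24 in WT and 6.09, 6.48, 5.81 and 6.44 in Trim33-KD. The lines did not overlap, and the difference was 1.58 (SE 0.26, adjusted p = 0.0533). Lama3 gave 5.78, 6.18, 5.94 and 6.18 in WT and 6.87, 7.46, 6.70 and 7.46 in Trim33-KD, a difference of 1.10 (SE 0.23, adjusted p = 0.0923). Both replicate 2 arrays of Trim33-KD were above both replicate 1 arrays for Itgb4 and for Lama3. All 4 WT arrays of Itgb4 and 1 of its Trim33-KD arrays were under 6. A further, dim Lama3 probe set, at most 5.25 on any array, gave -0.41, in the opposite direction. Lamb3 differed by 0.51 (adjusted p = 0.358) and overlapped. Such a separation of replicate 2 from replicate 1 was seen for Itga8, Itga3 and Sparc in Trim33-KD. There Itga8 differed from WT by 1.16 (limma adjusted p = 0.0873) and Itga3 by 0.77 (limma adjusted p = 0.121). The further Itga3 probe sets disagreed, at 1.52 and, for a probe set with a mean of 7.08, at -0.068. Nid2 differed by 0.38 (adjusted p = 0.0773) and Col1a2 by -0.40 (adjusted p = 0.0856).

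The summed linear signal of the trophectoderm markers moved with the same arrays. In Trim33-KD most of this sum came from the keratins Krt8 and Krt18, so it mainly follows these genes and not the list. For all markers together, the sum had these values. The sum was 11750 and 11450 on the replicate 2 arrays of Trim33-KD, 5556 and 5912 on its replicate 1 arrays, 4343 to 5215 in WT and 3770 to 3949 in Smad4-null. Krt8, a keratin of simple epithelia, read 11.22, 12.55, 11.18 and 12.66 in Trim33-KD, and its partner Krt18 read 10.88, 12.03, 11.02 and 11.82. Elf5 and Gata3 of this list of 8 were under 6 on every array, and 0 of 8 passed between Trim33-KD and WT. Of the 6 neural plate markers, Pax6 was lowered in Trim33-KD against WT (16.7%, where 0.649% of all genes passed). Sox1 and Zic1 of that list were under 6 on every array. The summed signal of the neural plate markers was 402.5 to 530.7 in Trim33-KD and 603.7 to 747.2 in WT. The part of any cell type in the values of Itgb4, Lama3, Itga8, Itga3 and Sparc was not tested. Under some other settings 1 to 5 members passed: Itgb4 alone with quantile normalization (adjusted p = 0.0294), Itgb4 and Nid2 with median centring, Lama3 with the replicate number as a block (adjusted p = 0.0266), Col1a2 and Nid2 with the floor of 6, Itga3, Nid1 and Nid2 when the upper 50% of genes by mean signal were tested, and Itga3, Itga8, Itgb4, Lama3 and Nid2 with a trended and robust prior.

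Trim33-KD and Smad4-null were also compared with each other, in a comparison that shares its arrays with those above. Here 16 of 77 members passed, 10 higher and 6 lower in Trim33-KD, against 18.4% of all genes, 11.1% higher and 7.32% lower. The largest difference was that of Itga8, higher in Trim33-KD by 3.56 (SE 0.23, adjusted p = 0.00018). Lama4 (2.25), Itgb4 (1.79), Itga1 (1.65), Lama3 (1.45), Col26a1 (1.13), Itga7 (0.99), Itgb5 (0.92), Col5a1 (0.76) and Col4a1 (0.48) were higher as well. With signals floored at 6, 5 of these calls were lost: no difference was left for Lama4 and Itga7 (0 each), and 0.089 was left for Col26a1, 0.25 for Itgb4 and 0.53 for Itga1. Markers of the primitive streak and mesendoderm moved with these members, 7 of 8 being higher in Trim33-KD as well (all but Mesp1, 87.5%). Other marker lists were mixed. Of the 8 epiblast markers 2 were higher and 2 lower (50%), and of the 10 fibroblast markers 2 were higher and 2 lower (40%). Extraembryonic endoderm had 1 higher of 14 (7.14%), and endothelium and neural plate had 1 lower of 6 each (16.7%). Of the 8 trophectoderm markers, Cdx2 (3.08) and Krt8 (1.74) were higher and 0 lower (25%, against 18.4% of all genes). Cdx2 was also lowered in Smad4-null against WT. The part of these markers' cells in the members' differences was not tested. Lower in Trim33-KD were Col2a1 (-1.46), Itgb7 (-1.32), Itga6 (-1.01), Fn1 (-0.81), Nid1 (-0.55) and Nid2 (-0.26). For Itga6 the 95% interval ran from -1.22 to -0.80. Not past the threshold were Lama1 (0.43), Lama5 (0.25), Lamb1 (0.13), Lamc1 (-0.12), Col4a2 (0.33), Hspg2 (-0.28), Sparc (0.50), Itga3 (0.33), Itga5 (0.27) and Itgb1 (-0.39). Further Itga5 probe sets disagreed here too, at 0.18, -0.27 and -0.83. The Nid2 call was lost without each of the 12 arrays in turn, and that of Nid1 without any of 10. Without any single array, 10 of the 16 calls held. With all probe sets of a gene averaged, the calls for Lama3, Col26a1, Col4a1, Itga1, Nid1 and Nid2 were lost. Nid2 has only 1 probe set, so its own values were the same under that setting. Among the partner genes, 6 were higher and 1 lower in Trim33-KD of the 25 for collagen processing, with Bmp1 at 3.24 and Tll1, under 6 on every array, at 2.17 (28%). Of the 20 other basement membrane proteins and receptors 8 were higher and 1 lower (45%), with Frem2 at 1.89 and Smoc1 at 1.73. The 17 integrin adaptors split into 3 higher and 3 lower (35.3%), with Zyx at 1.95, and the 16 proteases and inhibitors into 2 higher and 1 lower (18.8%), with Mmp9, under 6 on all Smad4-null arrays, at 2.08.

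The 2 h comparison of activin with SB431542 gave no member past the threshold in any line. In WT 0 of 77 members passed, where 0.033% of all genes did, in Smad4-null 0 where 0.011% did and in Trim33-KD 0 where 0.011% did. At an unadjusted p under 0.05 there were 4, 12 and 4 members. Itga5 had the largest positive WT difference among members over 6 on every array, 0.45 (95% interval -0.11 to 1.01). Lamb1 stood at 0.42 and Lama5 at 0.37, whereas Col4a1 (0.11), Lamc1 (0.079), Fn1 (-0.079), Sparc (-0.044), Itgb1 (-0.012) and Itgb5 (-0.044) were closer to 0.

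In WT and Smad4-null the smallest unadjusted p values belonged to dim genes. In WT they were those of Itgb2l (-1.09), Col13a1 (0.72) and Col8a1 (-1.56). Col13a1, a transmembrane collagen, read 4.22 and 4.54 with SB431542 and 5.07 and 5.11 with activin in WT. In Smad4-null it read 4.20 and 3.82 with SB431542 and 5.60 and 5.31 with activin, and in Trim33-KD 4.46 and 4.41 with SB431542 and 5.11 and 4.73 with activin. The activin arrays were higher in each line, with all 12 values under 6. Its difference in Smad4-null, 1.45, had the smallest adjusted p of any member in a treatment comparison (limma adjusted p = 0.132). Col25a1 (3.05) and Itgb2l (1.10) came next in Smad4-null, and Col10a1 (1.73), Col8a1 (-1.34) and Itgb7 (-0.47) led in Trim33-KD.

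In Smad4-null, 55 of 77 members were higher with activin, as were 10883 of all 18193 genes. The median was 0.22 over the members and 0.06 over all genes. Of the collagens 34 of 42 were higher, with a median of 0.37. One of the 2 activin arrays of this line, replicate 1, is an array of narrow spread. Without the 2 arrays of narrow spread the member median was 0.16 and that of the collagens 0.25, with all genes at 0.03. Among the 28 members over 6 on every array the median was 0.11, and 0.04 without these arrays. With signals floored at 6 the median was 0 for the members and for all genes. A gene under 6 on all arrays compared has a floored difference of 0 by construction, so this median cannot show whether such genes shifted. The 28 brighter members ranged from -0.33 to 0.45 in WT, from -0.20 to 0.38 in Smad4-null and from -0.47 to 0.25 in Trim33-KD.

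**Figure D5:**
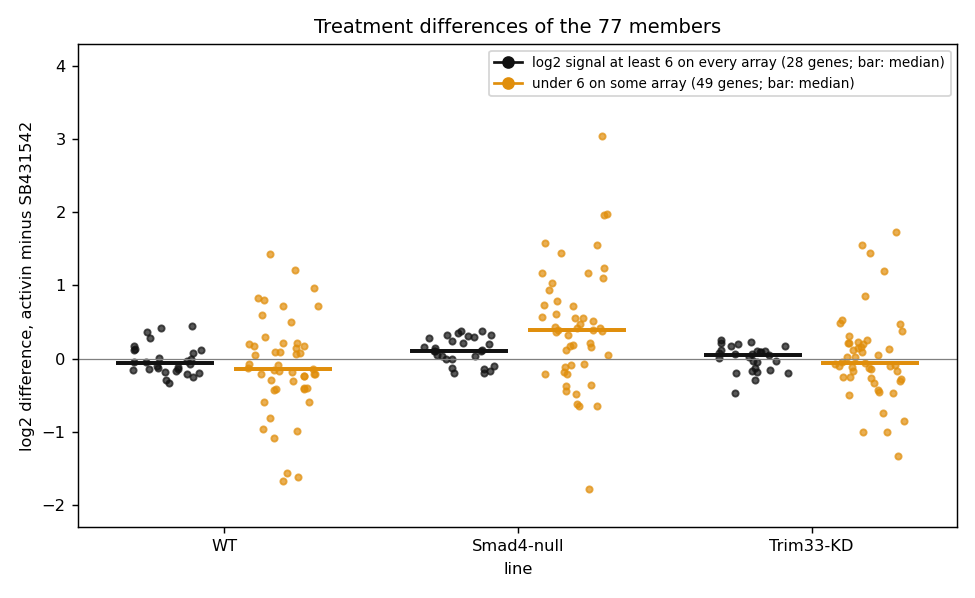
The log2 difference between activin and SB431542 (2 arrays each) is plotted for the 77 members in each line, with the 28 members over 6 on every array in black and the other 49 in orange, and a bar at each median. The black points stay between -0.47 and 0.45 in the 3 lines, while the orange points spread from -1.78 to 3.05.

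The test of the difference between treatment effects found no member either. The share of all genes that passed was 0% for Smad4-null against WT, for Trim33-KD against WT and for Trim33-KD against Smad4-null, with 9, 4 and 10 members at an unadjusted p under 0.05. The smallest adjusted p, 0.317, was that of Itgb2l, whose difference was -1.09 in WT and 1.10 in Smad4-null. Among the brighter members, Itgb5 stood at 0.37 in Smad4-null and -0.044 in WT, and the 95% interval of this difference between treatment effects ran from 0.073 to 0.76, without passing (limma adjusted p = 0.628). Col25a1 and Col6a1 followed Itgb2l in the Smad4-null comparison with WT, Itgb2l, Col10a1 and Col1a2 had the smallest unadjusted p for Trim33-KD against WT, and Col13a1, Col9a1 and Col15a1 for Trim33-KD against Smad4-null.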

How the data were processed

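The authors deposited log2 signals per probe set for 12 Affymetrix arrays, 1 per sample. On the linear scale every array has a 2%-trimmed mean of 500, so arrays had been scaled, but their distributions differ, so they had not been quantile normalized. Probe summarization: not given in the sources used here. The submitters' processing notes list limma with no version. No transformation was added, and the number of arrays, not depth, sets the precision.

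For each of 18193 genes the probe set with exactly 1 symbol and the highest mean was kept. All 12 arrays entered a model with 1 mean per group (limma 3.58.1 in R 4.3.3, lmFit and eBayes), with 6 residual degrees of freedom and Benjamini-Hochberg adjustment over all genes at 0.05, and was tested on simulated data. Genotype comparisons average the treatments. Arrays were not paired by replicate number: of 15 pairs of groups, 6 had correlated deviations above 0.1 (range -0.30 to 0.39). Members, lists and rules were chosen with earlier results of these data known. The rule named, in each genotype comparison, the up to 15 raised and 15 lowered members with the largest difference, 3 members per treatment comparison without calls, set basement membrane and adhesion genes, and up to 4 called genes per list. In Smad4-null against WT, where 18.4% of all genes passed, the endothelium markers gave 1 raised and 0 lowered of 6 (16.7%). The neural plate markers gave 2 raised and 1 lowered of 6 (50%). Alternatives were 14 other settings and each array left out. Figures come from matplotlib 3.10.9 in Python 3.11.15. Promoter sequences and chromosomes are from RefSeq (GRCm38.p6); 18031 genes matched.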

Additional observations from a re-analysis of the deposited data

How the results depend on the processing

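Between Smad4-null and WT, 19 members passed; 12 passed (8 raised, 4 lowered) when the 19 members in the upper 50% of genes by mean signal were tested, and 11 (5 raised, 6 lowered) on the activin arrays alone. With signals floored at 64 on the linear scale, which removes differences between dim signals, 15 passed (8 raised, 7 lowered), and without genes of chromosomes 8 and 14, which hold Col4a1 and Nid2 among the called members, 17 passed. Between Trim33-KD and WT, where none passed, 1 passed with quantile normalization, 2 with median centring, 3 in the upper 50%, 2 with the floor of 64, 5 with a trended and robust prior and 1 (Lama3) with a replicate block; leaving out single arrays gave 0 to 1, the 1 being Col1a1 without WT-SB replicate 2 (the lone array left in a group is assumed to vary like the others). Between Trim33-KD and Smad4-null, 16 became 10 on the activin arrays, and the floor of 64 turned 10 higher and 6 lower into 5 higher and 8 lower. Averaging all probe sets of a gene reversed Lama5 in Smad4-null against WT, to 0.21 (adjusted p = 0.568). The replicate block moved no other count of called members by over 1.5 times; over all genes, calls for activin against SB431542 in WT went from 6 to 2 with it, and treatment comparisons and their differences stayed at 0 members under the alternatives run on them. Why these counts moved was not tested, except that fewer genes or arrays entered where they were left out. Signals under 6 limit what can be read from 23 members on every array.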
